A study of Mus musculus with 3 samples.

Results

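The USP family of deubiquitinases was described in 3 sequencing libraries of mouse macrophages. Its members were the protein-coding genes whose symbol is Usp followed by a number and at most 1 letter. This gave 49 genes of 22028 annotated protein-coding genes. The cells were bone-marrow-derived macrophages of strain C57BL/6J, grown from mouse bone marrow in culture. They had received 100 ng/ml Lipid A for 12 hours, were washed and kept 12 hours without it, and were then given 100 ng/ml Lipid A for 40 minutes. Lipid A, the membrane anchor of bacterial lipopolysaccharide, activates cells through Toll-like receptor Tlr4. Total RNA of the cytosolic fraction, depleted of ribosomal RNA, was sequenced as biological replicates 1, 2 and 3 of this 1 group. All 3 carry the same donor label, and sex and age were not collected, per the labels. No other group was used here, so each comparison below is between genes within a library. No value below is a response to Lipid A.

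Deubiquitinases cut ubiquitin from proteins or from ubiquitin chains, and so reverse what ubiquitin ligases do. The ubiquitin-specific proteases (USPs) are cysteine proteases and form the largest deubiquitinase family of mammals. Their catalytic domain carries a cysteine in a conserved stretch, the Cys box, while the parts outside it differ and bring each enzyme to its own substrates and partners. In macrophages, ubiquitin chains on the TRAF adaptors and on kinases carry the signal from Toll-like receptors to NF-kB and interferon genes. Several USPs are known to edit those chains.

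The Cys box was found in the coding sequence of 48 of the 49 members, with the pattern G, up to 2 residues, N, 1 to 6 residues, C, an aromatic residue or A, 5 residues and Q. It was not found in Usp39, a spliceosome protein known to lack the catalytic cysteine. The 60 bases around the cysteine codon are shown for related members whose levels are compared below, to show how far genes that encode nearly the same active site differ at the base level. Sequences are the sense strand of GENCODE M21 transcripts (GRCm38), 5′ to 3′, and capitals mark the cysteine codon.
Usp25: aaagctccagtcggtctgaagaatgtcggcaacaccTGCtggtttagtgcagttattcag
Usp28: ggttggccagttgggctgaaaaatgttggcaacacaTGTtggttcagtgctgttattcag
Usp12: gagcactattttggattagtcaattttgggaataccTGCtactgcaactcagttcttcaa
Usp46: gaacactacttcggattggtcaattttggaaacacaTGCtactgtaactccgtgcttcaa
Usp4: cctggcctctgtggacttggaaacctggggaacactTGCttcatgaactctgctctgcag
Usp15: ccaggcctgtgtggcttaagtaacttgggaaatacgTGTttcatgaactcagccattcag
Usp11: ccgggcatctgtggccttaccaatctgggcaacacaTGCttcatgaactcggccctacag
Usp9x: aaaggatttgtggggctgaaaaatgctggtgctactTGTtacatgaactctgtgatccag
Usp9y: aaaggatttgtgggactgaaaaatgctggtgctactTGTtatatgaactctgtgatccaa
The stretch of Usp25 lies within 1 exon at chr16:77050501-77050560 on the plus strand, and that of Usp28 at chr9:49003923-49003982 on the plus strand. Those of Usp12 (chr5:146763379-146768960) and Usp46 (chr5:74032482-74037056), both on the minus strand, span an intron. Usp4 has it at chr9:108366819-108366878 on the plus strand, Usp15 at chr10:123146794-123146853 on the minus strand and Usp11 at chrX:20713337-20713396 on the plus strand. Usp9x has it at chrX:13145183-13145242 on the plus strand and Usp9y at chrY:1333719-1333778 on the minus strand. Usp12 and Usp46 encode the same 20 residues in this stretch with 10 of 60 bases different. Usp9x and Usp9y also encode the same 20 residues, and differ at 3 bases, as do Usp22 and Usp27x, which differ at 13. Usp25 and Usp28 differ at 2 residues and 14 bases, and Usp4 and Usp15 at 2 residues and 16 bases. Over all 21 pairs of related members the share of identical bases had a median of 73.3% and ranged from 50% (Usp2 and Usp21) to 95% (Usp9x and Usp9y).

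The deposited gene tables held 38197192, 46327891 and 38685666 expected counts on annotated genes in replicates 1, 2 and 3. Levels are given as TPM, a share of all transcripts in a library that corrects counts for transcript length, so that levels of different genes can be compared. The 8 macrophage markers looked at were all detected and above the library median. All 4 B cell, 5 T or NK cell, 5 dendritic cell and 5 stromal markers were below 1 TPM in every library. A further planned B cell marker, Ighm, was not looked at, since markers were matched only to genes annotated as protein-coding. Among 5 neutrophil markers S100a8 was detected, at 2.56, 2.87 and 4.23 TPM, and the other four were below 1 TPM. Nuclear protein-coding genes, those outside the mitochondrial genome, held 33.3%, 28.1% and 27.7% of all TPM in replicates 1, 2 and 3. The median over detected nuclear protein-coding genes was 9.52, 8.0 and 8.29 TPM, highest in replicate 1, and tests below are against each library's own median. Whether the replicates came from separate animals is not given in the sources used here, so the spread between these libraries may be technical. The SE and p-values rest on that spread, with each gene's variance drawn by limma toward that of all genes tested. They are not a measure of the gene's own spread alone.

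Of the 49 members 35 were detected, here meaning 1 TPM or more in all 3 libraries, as were 41.4% of all annotated protein-coding genes. The family held 0.147%, 0.134% and 0.15% of the TPM of nuclear protein-coding genes in replicates 1, 2 and 3. Mean levels of the detected members ran from 1.40 TPM for Usp20 to 54.4 TPM for Usp25, a 39.0-fold span. Usp25 alone held 12.7% of the summed mean TPM of the family, and the highest 5 members together 41.9%. The median level was 7.58 TPM for detected members, against 8.585 TPM for all detected nuclear protein-coding genes. In such bulk RNA, fewer cells that express a gene and less of its RNA per cell cannot be told apart.

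**Figure D1:**
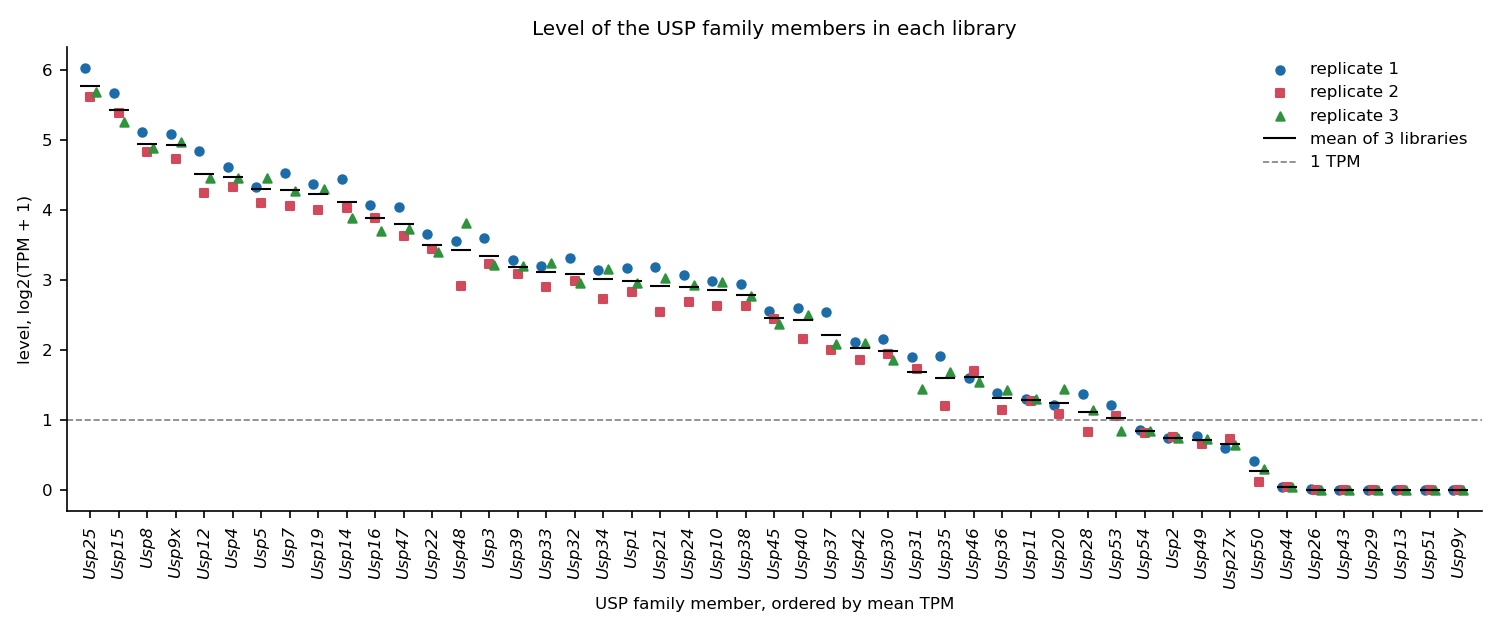
Level of each of the 49 members on the log2(TPM + 1) scale (vertical axis) in the 3 libraries (points), ordered by mean TPM, with the mean of 3 libraries as a line and 1 TPM dashed. Usp25 and Usp15 lead with means of 54.4 and 42.7 TPM, and 5 members at the right end have no count.

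Each detected member was then set against the median of 9106 detected nuclear protein-coding genes in the same library. By limma, with Benjamini-Hochberg adjustment over those genes, 13 of the 35 were above the median, 18 were below it and 4 were called neither way. Of all genes tested 45.5% were called above and 45.5% below. The 4 without a call were Usp48, Usp3, Usp39 and Usp33, whose mean levels lay between 7.74 and 10.2 TPM. Without any filter on low values the median falls, and 26 of 44 members with a TPM above 0 were then above it and 15 below, where 47.5% of all genes tested were called above and 47.6% below.

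The 9 members listed here under innate and NF-kB signalling were all detected, as were 41.4% of all annotated protein-coding genes. Of these 9, 3 were above the median and 6 below. The list was made by hand with earlier results known and need not hold every member with such a role. Usp25, known to act on ubiquitin chains of TRAF adaptors downstream of Toll-like and interleukin 17 receptors, had 64.45, 48.40 and 50.42 TPM in replicates 1, 2 and 3. It was the highest member in every library, 2.52 ± 0.07 above the median on the log2(TPM + 1) scale (SE, n = 3; limma adjusted p = 1.81e-08). Usp25 lies on chromosome 16 from 77013706 to 77116780, and 93.4% ± 3.13 of its transcript TPM (SD, n = 3) was in the protein-coding transcript Usp25-201.

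Usp15, which acts on receptors and SMAD proteins of the TGF-beta pathway and on the RNA sensor pathway, was listed second. Its gene-level values were 49.94, 40.82 and 37.40 TPM, 2.18 ± 0.07 above the median (SE, n = 3; adjusted p = 4.36e-08). This rank depended on which transcripts are counted, as shown further on. Usp4, a relative of Usp15 that is known to act on TRAF6 and the kinase TAK1, had 23.61, 19.23 and 21.13 TPM and was 1.22 ± 0.07 above the median (adjusted p = 5.02e-07).

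The other six of this group were below the median. Usp34, a very large enzyme of Wnt signalling, had 7.88, 5.64 and 7.96 TPM and was 0.25 lower (adjusted p = 0.0269). Usp10, the partner of the stress granule protein G3bp1, had 6.95, 5.18 and 6.88 TPM, and Usp38, known to act on the kinase TBK1, had 6.75, 5.2 and 5.85 TPM. Usp31, described in human cells as an inhibitor of NF-kB activation, reached 2.74, 2.34 and 1.73 TPM. The lowest 2 were Usp11, the third relative of Usp4 and Usp15, with 1.48, 1.42 and 1.47 TPM, and Usp20, with 1.33, 1.12 and 1.74 TPM. Members of this list thus held both the highest and the lowest level among detected members.

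Members tied to ubiquitin recycling and the proteasome were either well above the median or had no count. Usp5 (isopeptidase T), which takes apart free ubiquitin chains, had 19.20, 16.26 and 21.05 TPM and was 1.04 ± 0.08 above the median (SE, n = 3; adjusted p = 5.48e-06). Usp14, bound to the proteasome, had 20.73, 15.36 and 13.83 TPM and was 0.86 ± 0.09 above it (adjusted p = 2.11e-05). Usp13, the close relative of Usp5, had 0 expected counts in every library.

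Of the 6 members that act at endosomes, the endoplasmic reticulum or mitochondria, 2 were above the median, 3 below and 1 was not called. Usp8, which controls sorting of receptors at endosomes, was the highest of them with 33.90, 27.47 and 28.69 TPM, 1.69 ± 0.07 above the median (SE, n = 3; adjusted p = 8.16e-08). Usp19, which has an isoform anchored in the endoplasmic reticulum, followed with 19.83, 15.12 and 18.78 TPM (adjusted p = 4.22e-06). Both were above the library median in all 3 libraries. Usp33 had 8.22, 6.46 and 8.54 TPM with no call. Usp32, which acts on the late endosome protein Rab7, had 9.02, 6.92 and 6.80 TPM and was called below at an adjusted p of 0.0497, next to the threshold of 0.05. Usp30, the outer mitochondrial membrane enzyme that opposes the ligase Parkin, had 3.46, 2.87 and 2.65 TPM, and Usp35 had 2.79, 1.30 and 2.22 TPM.

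Members that act on histones and other chromatin proteins showed a wide range: 7 of 11 were detected, 3 above the median, 3 below and 1 not called. Usp7, which acts on p53 and its ligase Mdm2, led with 22.14, 15.71 and 18.45 TPM, 1.03 ± 0.07 above the median (SE, n = 3; adjusted p = 2.91e-06). Usp16, a histone H2A deubiquitinase, had 15.82, 13.90 and 12.02 TPM. Usp22, the enzyme of the deubiquitinase module of the SAGA coactivator, had 11.67, 9.91 and 9.56 TPM and was 0.24 ± 0.07 above the median (adjusted p = 0.00839). By gene-level TPM these 3 were the chromatin members above the median. Usp3 (11.11, 8.45 and 8.32 TPM), another histone H2A enzyme, had no call. Below the median were Usp21 (8.11, 4.87 and 7.19 TPM), a further histone H2A enzyme, Usp42 (3.34, 2.65 and 3.29 TPM) and the nucleolar Usp36 (1.62, 1.22 and 1.71 TPM). Usp49, Usp27x and Usp44 stayed below 1 TPM in every library, and Usp51 had no count.

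Among 6 members of genome stability and the cell cycle, Usp47, which acts on DNA polymerase beta, was the only one above the median, with 15.61, 11.43 and 12.29 TPM (adjusted p = 0.000122). Usp48 had 10.81, 6.57 and 13.11 TPM and no call. Usp1, which removes ubiquitin from Fancd2 and PCNA together with Wdr48, had 8.01, 6.14 and 6.80 TPM and was 0.27 below the median (adjusted p = 0.00519). Usp45, an enzyme of DNA repair, had 4.88, 4.44 and 4.2 TPM, and Usp37, an enzyme that acts on cyclin A, had 4.87, 3.03 and 3.26 TPM. Both were below the median. Usp28, which acts on Myc, had 1.59, 0.78 and 1.21 TPM and so missed detection in replicate 2.

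Usp12, an enzyme that needs the WD-repeat proteins Wdr48 and Wdr20 for full activity, ranked 5 among the members with 27.83, 18.08 and 21.12 TPM (adjusted p = 1.86e-06 for being above the median). Its relative Usp46 had 2.05, 2.26 and 1.93 TPM. Usp9x, an X-linked enzyme that stabilises Mcl1 among other substrates, had 33.18, 25.72 and 30.41 TPM, 1.68 ± 0.07 above the median (SE, n = 3; adjusted p = 1.24e-07). Its values overlapped those of Usp8. Usp39 had 8.75, 7.54 and 8.25 TPM, close to the library medians. Usp24, a large relative of Usp9x, had 7.47, 5.46 and 6.61 TPM, and Usp40 had 5.10, 3.48 and 4.70 TPM, both below the median.

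The 14 members that were not detected were of 3 kinds. Usp28 and Usp53 (1.32, 1.08 and 0.80 TPM) reached 1 TPM in 2 of 3 libraries. Usp54 (0.81, 0.77 and 0.80 TPM), Usp2 (0.68, 0.70 and 0.68 TPM), Usp49 (0.71, 0.59 and 0.66 TPM) and Usp27x (0.52, 0.67 and 0.57 TPM) were low but steady, with 61 to 311 expected counts in a library. Usp50 had 24.3, 8.77 and 20.6 counts, Usp44 4, 6 and 5, and Usp26 3, 0 and 0. Usp43, Usp29, Usp13, Usp51 and Usp9y had no count in any gene table, as had 32.0% of all annotated protein-coding genes. All 4 members listed here under germ line or testis (Usp26, Usp29, Usp44 and Usp50) were among the undetected. Of all annotated protein-coding genes only 41.4% were detected, and Usp44 is also on the chromatin list. Usp9y lies on the Y chromosome, and the Y-linked genes Ddx3y, Eif2s3y, Kdm5d and Uty also had no count in any library.

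Related members were compared within each library, because such pairs share their catalytic domain and often their partners. Of 21 pairs 13 could be tested, and all 13 were called different. Such calls are common: between 12.6% and 100% of genes tested were called in the pair's direction against its second gene, as given with each pair. In Usp8/Usp50, Usp22/Usp27x and Usp2/Usp21 one gene was detected and the other was below 1 TPM in every library. Their direction was fixed by the rule that let pairs in. Ratios are on the log2(TPM + 1) scale, which understates the ratio where 1 gene is low. SE and adjusted p-values are from a limma fit that sums the variances of both genes. They do not measure the spread of the ratio between libraries. Benjamini-Hochberg adjustment was over all genes set against the second gene. The largest differences were next to genes near 1 TPM or below. The ratio of Usp25 to Usp28 was 4.66 ± 0.11 (SE, n = 3; adjusted p = 4.26e-09), with 48.1 ± 12.1 times as much TPM for Usp25 (SD, n = 3). Here 95.1% of genes tested were called higher than Usp28, so that a call against so low a gene is common. The ratio of Usp8 to the testis gene Usp50 was 4.67 ± 0.09 (adjusted p = 9.14e-10), where 100% of genes tested were called higher. For Usp22 over its relative Usp27x it was 2.84 ± 0.11 (adjusted p = 3.14e-08), again with 100% called higher than Usp27x. Genes tested had to reach 1 TPM in all 3 libraries, and Usp50 and Usp27x were below 1 TPM in every library. The direction of these shares was thus fixed by that filter.

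Usp4, Usp15 and Usp11 form a family of close relatives with the same domain order. Gene-level TPM put Usp15 first, Usp4 next and Usp11 last in all 3 libraries. The ratio of Usp4 to Usp15 was -1.05, -1.05 and -0.80 in replicates 1, 2 and 3, a mean of -0.96 ± 0.10 (SE, n = 3; adjusted p = 2.1e-05), and 85.5% of genes tested were called lower than Usp15. Usp11 was far below both. The ratio was 3.18 ± 0.10 for Usp4 over Usp11 (adjusted p = 1.31e-08) and 4.14 ± 0.10 for Usp15 over Usp11 (adjusted p = 4.98e-09), while 91.7% of genes tested were called higher than Usp11.

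Usp12 and Usp46, whose active sites are identical in the residues shown above, differed 10.8-fold in TPM (SD 2.79, n = 3). Their ratio was 3.24, 2.55 and 2.92 in replicates 1, 2 and 3, with an SD of 0.35. The mean was 2.90 ± 0.12 (SE from the summed variances, n = 3, adjusted p = 7.92e-08), and 84.5% of genes tested were called higher than Usp46. Of the 2 large relatives, Usp9x was above Usp24 by 2.04 ± 0.10 (adjusted p = 5.47e-07), while 52.1% of genes tested were called higher than Usp24. That ratio was nearly the same in each library (2.01, 2.05 and 2.05), with an SD of 0.02. Usp33 was above Usp20, both known to act on receptors that recycle to the cell surface, by 1.87 ± 0.12 (adjusted p = 1.25e-06; 92% of genes tested were called higher than Usp20). Usp16 was above Usp45 by 1.43 ± 0.10 (adjusted p = 3.32e-06; 64% called higher than Usp45). Usp38 was above Usp35 by 1.18 ± 0.12 (adjusted p = 3.1e-05; 83.8% called higher than Usp35).

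In 2 further pairs the first gene was the lower one. Usp36 was 0.488 ± 0.0298 times as abundant as Usp42 (SD, n = 3), a ratio of -0.70 ± 0.10 (SE, adjusted p = 0.00031). Of the detected genes tested 12.6% were called lower than Usp42. Usp2, known for daily rhythms of expression in other tissues, was below Usp21, with a log2 ratio of -2.17 ± 0.12 (adjusted p = 1.57e-06). The SD of that ratio between libraries was 0.34, and 33.4% were called lower than Usp21. Both shares leave out undetected genes, which were not tested. Usp2 was itself undetected and was added to the fit, so the 33.4% is not a like background for it.

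For 5 pairs the second gene had no count, and the fold is a lower bound against 3 counts in each library. Usp9x was at least 4793-fold higher than its Y-linked copy Usp9y. The other Y-linked genes looked at had no count either, and whether the cells carried a Y chromosome was not tested. Usp5 was at least 1043-fold higher than Usp13, and Usp22 at least 418-fold higher than Usp51, the third enzyme that can join the SAGA-type module. For Usp31 over Usp43 the bound was 98.0-fold, and for Usp37 over Usp29 it was 214-fold. These bounds are of the gene tables and cover counting error only. The read-based table listed Usp29 above 0, and the bound does not hold there: it gave Usp37 1.94, 1.54 and 1.49 TPM in replicates 1, 2 and 3, against 0.0889, 0.0138 and 0.0687 TPM for Usp29. For Usp53 and Usp54, Usp44 and Usp49, and Usp37 and Usp26 no test was made, and their values stand above.

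**Figure D2:**
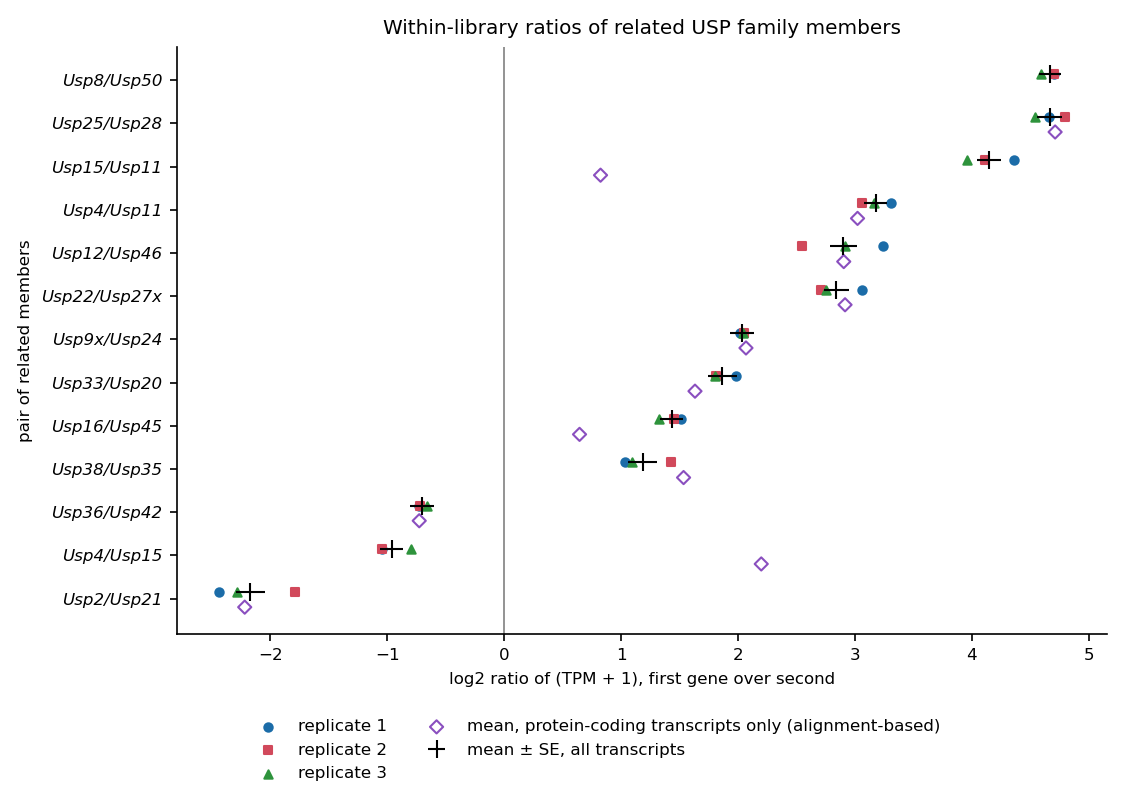
Log2 ratio of (TPM + 1), first gene over second (horizontal axis), for the 13 tested pairs, with the 3 libraries as points and mean ± SE as a black cross. The SE sums the variances of both genes and is not the spread of the points. Open diamonds give the mean over protein-coding transcripts alone, not drawn for Usp8/Usp50, since Usp50 has no TPM there; they stay near the cross for most pairs but move Usp4/Usp15 across 0, to 2.20, and Usp15/Usp11 to 0.82.

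The transcript tables showed which transcripts carried these levels. A gene's transcripts are annotated as protein-coding, as retained intron (a transcript holding unspliced intron sequence, with no coding sequence annotated), as targets of nonsense-mediated decay, or as others. In the read-based table the median share of a detected member's TPM in protein-coding transcripts was 86.7%, against 91.8% over 9099 detected protein-coding genes. The alignment-based table gave 91.6% for the members. The same transcript led in both tables for 34 of the 35 detected members, which was not counted over other genes. Shares over 90% were found for 14 of 35 members and for 54.2% of all genes, and shares under 50% for 3 members, Usp15, Usp3 and Usp7, and for 7.13% of all genes.

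Usp15 stood apart from the rest of the family. Protein-coding transcripts held 6.22%, 3.71% and 5.21% of its TPM in replicates 1, 2 and 3 in the read-based table, and 7.43% ± 1.26 in the alignment-based table (SD, n = 3). By TPM it was the 1 detected member under 10%, where 0.637% of detected protein-coding genes lay. By estimated counts, in which short transcripts weigh less, protein-coding transcripts held a mean of 16.7% of Usp15 in the read-based table. Of its 11 annotated transcripts 3 are protein-coding and 8 are retained intron transcripts. The retained intron transcripts Usp15-208 (1587 bases) and Usp15-209 (2603 bases) held 42.8% ± 3.78 and 38.4% ± 3.16 of its TPM (SD, n = 3). In replicates 1, 2 and 3 the alignment-based table gave Usp15-208 23.73, 21.26 and 17.48 TPM, and gave Usp15-209 17.13, 15.18 and 13.21 TPM. The coding transcript Usp15-201 (4666 bases) had 2.93, 1.88 and 2.15 TPM there.

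Both leading transcripts of Usp15 consist almost wholly of exons that coding transcripts also use. Of Usp15-208, which runs over 9 exons at the 3′ part of the gene, 99.0% of bases lie in such exons and 16 bases lie outside them. Of Usp15-209, which runs over 17 exons from the 5′ end, 91.6% lie in such exons and 219 bases outside. Together their exons hold 97.0% of the coding sequence of Usp15-211, and the 2 transcripts share 768 bases. Which molecules the reads came from was not tested.

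**Figure D3:**
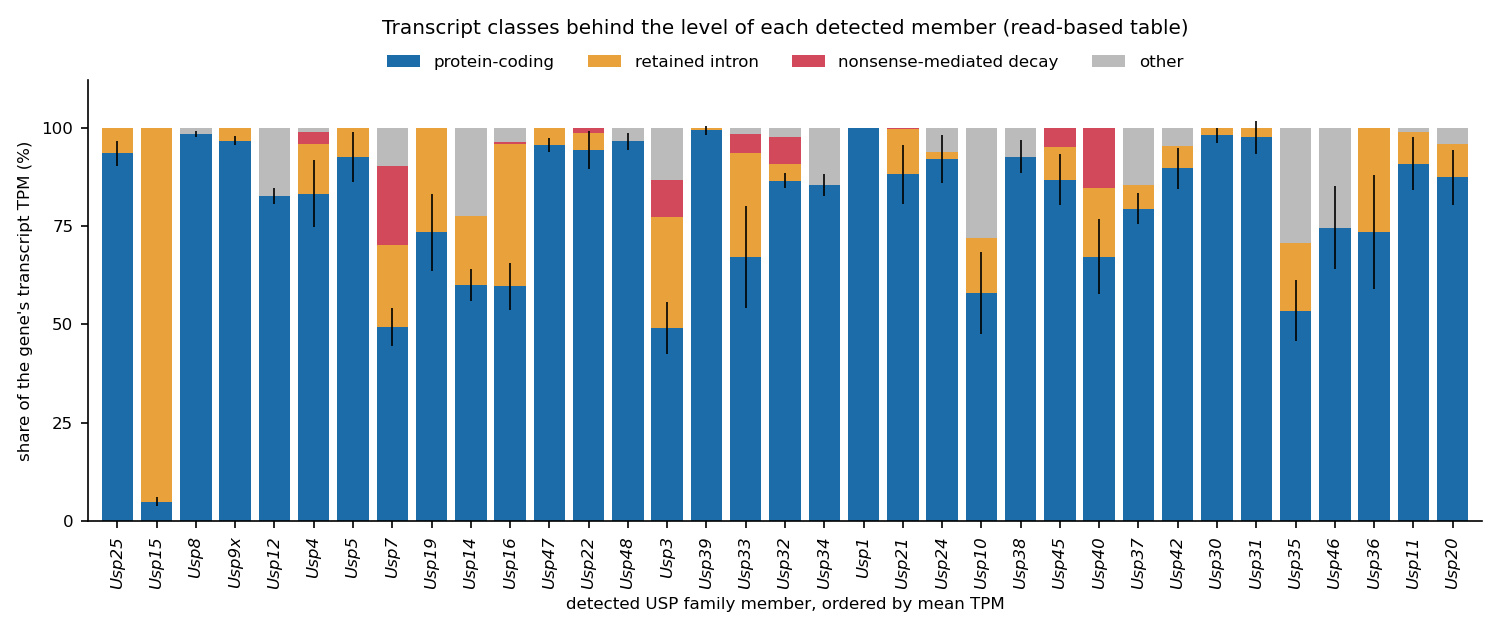
Share of each detected member's transcript TPM (vertical axis, %) by annotated transcript class in the read-based table, mean of 3 libraries, with the SD of the protein-coding share as a bar. Usp15 is the one member whose column is nearly all retained intron, at 94.95%, beside Usp25 with 93.4% protein-coding.

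Counted over protein-coding transcripts alone, Usp15 had 4.15, 2.44 and 2.99 TPM in the alignment-based table, and Usp4 had 20.07, 17.93 and 16.14 TPM. Usp15 then ranked 25 of the 49 members, and Usp4 ranked 5. The ratio of Usp4 to Usp15 turned to 2.20 (limma adjusted p = 1.12e-06), and was 2.08 in the read-based table (adjusted p = 1.13e-06). On this measure Usp15 was 1.08 below the library median (log2 difference -1.08, adjusted p = 1.18e-05). The ratio of Usp15 to Usp11 shrank to 0.82 (limma adjusted p = 0.000267), and to 0.26 in the read-based table (limma adjusted p = 0.0423). Read-based protein-coding means were 0.86 TPM for Usp15 and 0.54 TPM for Usp11, so the added 1 compresses that ratio strongly. Of the other pairs, Usp16 over Usp45 moved most in the alignment-based table, to 0.64, and was 0.50 in the read-based table. Levels ran lower in the read-based table, where the added 1 compresses ratios more, so ratios of the 2 tables are not directly comparable. Usp16 itself had 8.30, 7.75 and 6.07 TPM in protein-coding transcripts in replicates 1, 2 and 3 of the alignment-based table.

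**Figure D4:**
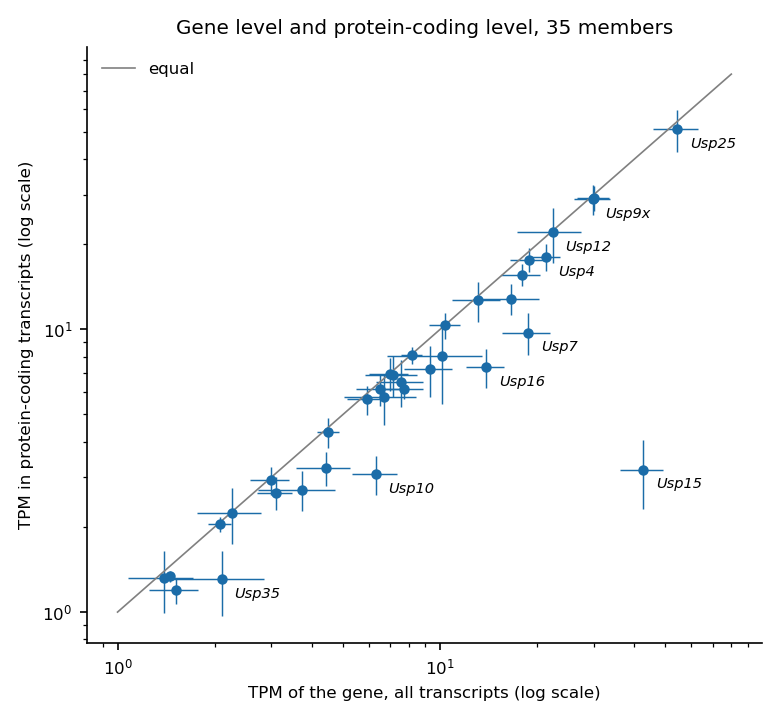
Mean TPM of the 35 detected members over all transcripts (horizontal axis) and over protein-coding transcripts in the alignment-based table (vertical axis), both log scales, with SD bars of 3 libraries and the line of equal values. Most members lie on or just under the line, Usp7, Usp16 and Usp10 lie below it, and Usp15 lies farthest below, at 42.7 TPM in all and 3.19 TPM in protein-coding transcripts.

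A few other members had much of their TPM outside protein-coding transcripts. For Usp7 the protein-coding share was 48.9%, 54.3% and 44.6% in replicates 1, 2 and 3. Its decay target Usp7-206, 98.3% of whose bases lie in exons of coding transcripts, held 20.2% ± 1.01 of its TPM in the read-based and 34.6% ± 2.27 in the alignment-based table (SD, n = 3). For Usp16 the share was 59.7% ± 5.88, and for Usp35 53.5% ± 7.67. By estimated counts in place of TPM the mean shares were higher, at 61.7% for Usp7, 78.8% for Usp16, 83.6% for Usp35, 66.7% for Usp3 and 81.4% for Usp10. The tables differed for some genes. Usp3 had 49.1% ± 6.56 in the read-based and 78.3% ± 13.8 in the alignment-based table, and Usp10 had 58.0% and 49.2%. Among members with a single dominant coding transcript were Usp39 with 99.3% ± 1.24, Usp8 with 96.5% in Usp8-201 and Usp31 with 97.6% in Usp31-201. Usp9x split its TPM over 4 transcripts annotated as coding, with 39.2% in the 11887-base Usp9x-201 and 24.8% in the 523-base Usp9x-205. Usp50 had none of its TPM in protein-coding transcripts in either table.

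The replicates agreed closely for most members. The median biological coefficient of variation (BCV, the spread between libraries beyond counting noise, from edgeR) was 0.109 over the 35 detected members. It was 0.115 over 7670 other protein-coding genes in the same range of counts, and 23 of 35 members lay below that value. By the SD of log2(TPM + 1), the largest spread was in Usp48, Usp35, Usp21, Usp12 and Usp37, from 0.46 to 0.29. The smallest was in Usp11, Usp46, Usp45, Usp39 and Usp42, from 0.02 to 0.14, although the added 1 compresses the spread of low genes: the BCV of Usp11 was 0.167 and that of Usp46 0.145.

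Most members were lower in replicate 2, relative to the median gene. The log2 TPM of a library minus the mean of the other two, less the median of that difference over all 9106 detected genes, had a median of -0.14 over the members in replicate 2, with 27 of 35 below 0. It was 0.06 in replicate 1 and 0.07 in replicate 3. Usp35 (-0.80), Usp48 (-0.72) and Usp21 (-0.51) were lowest in replicate 2, and Usp48 (0.72) and Usp20 (0.60) highest in replicate 3. With TMM-normalised counts in place of TPM the median for replicate 2 was -0.11 and Usp35 alone was beyond 0.5. Estimated transcript lengths moved with some of these values: the effective length of Usp48 was 3574, 4166 and 2993 bases in replicates 1, 2 and 3 while its counts were 2126, 2197 and 2606. For Usp20 the effective length was 4355, 4070 and 2851 bases, with 319, 367 and 329 counts.

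**Figure D5:**
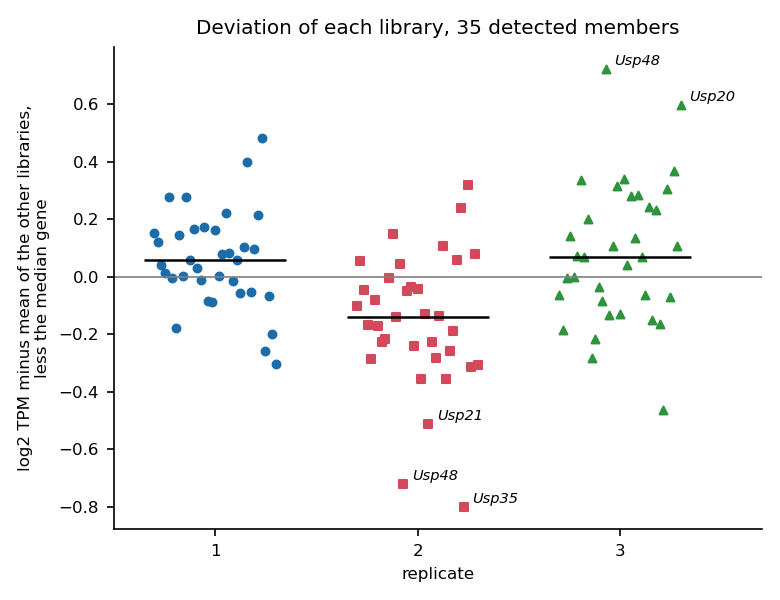
Deviation of each library for the 35 detected members (points; vertical axis in log2 TPM units relative to the other libraries and to the median gene), with the median as a line and members beyond 0.5 named. Replicate 2 has its median at -0.14 with 27 members below 0, and replicates 1 and 3 at 0.06 and 0.07.

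Most members could be told from other genes by sequence. For 43 of 49 members under 1% of the distinct 50-base stretches of their transcripts also occurred in transcripts of another gene. This was not computed over other genes, so it does not set the family apart. The share was 49.3% for Usp49, whose exons overlap the readthrough gene Gm20517, 21.4% for Usp1, shared with the processed pseudogene Gm5841, 10.6% for Usp50 and 6.08% for Usp9x. Usp12 shared 2.22% with the pseudogene Gm8902. Values of these genes are uncertain to that extent, since how reads of shared stretches were split is not given in the sources used here. Some members overlap exons of a gene on the opposite strand, namely Usp14 with Thoc1 over 26.0% of its exon bases, Usp38 with Gm9725 over 20.5%, Usp33 with Gm43857 over 15.3% and Usp34 with Ahsa2 over 11.6%. Whether counting used strand is not given here, so reads of such overlaps cannot be told apart.

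Other deubiquitinase families and ubiquitin genes were measured in the same libraries. Of 15 OTU deubiquitinases 12 were detected, 5 above the median and 6 below. Tnfaip3 (A20), which ends NF-kB signalling, had 184.82, 142.22 and 83.44 TPM, above every USP member in each library, followed by Otud5 (18.7 ± 4.43 TPM) and Otub1 (18.1 ± 3.06 TPM; SD, n = 3). Otub2, Otud6a and Otud7a were below 1 TPM in every library. All 7 JAMM metalloproteases were detected, led by the proteasome subunit Psmd14 (34.4 ± 2.76 TPM), Cops5 (23.4 ± 2.69 TPM) and Mpnd (12.3 ± 1.5 TPM), with 3 above and 2 below the median. Of 5 MINDY and ZUFSP enzymes 4 were detected, all above the median: Zup1 (31.8 ± 7.86 TPM), Mindy1 (12.7 ± 0.36 TPM), Mindy3 (12.3 ± 0.94 TPM) and Mindy2. Mindy4 was below 1 TPM. Among the UCH enzymes Uchl5 (10.5 ± 0.66 TPM) and Bap1 (10.5 ± 1.24 TPM) were above the median, Uchl3 (5.60 ± 0.32 TPM) was below and Uchl1 was under 1 TPM. Of the 3 Josephin enzymes, Josd2 (7.87 ± 0.63 TPM) had no call, and Atxn3 (7.08 ± 0.86 TPM) and Josd1 (4.49 ± 0.46 TPM) were below. Cyld, a USP-fold enzyme with another name that acts on NF-kB signalling, had 11.3 ± 1.54 TPM and was above the median, and Pan2 (1.56, 0.87 and 1.36 TPM) was not detected.

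Of 14 partners and substrates of USP enzymes 13 were detected, 3 above the median and 7 below. Mdm2, the p53 ligase that Usp7 stabilises, was highest with 73.82, 43.53 and 39.88 TPM, followed by Stam2 (13.1 ± 3.31 TPM), an endosomal partner of Usp8, and Atxn7l3 (12.6 ± 1.98 TPM), which activates Usp22. The activators of Usp12 and Usp46 differed: Wdr48 had 9.14 ± 0.90 TPM with no call and Wdr20 had 5.2 ± 0.18 TPM, below the median. Dmwd was the partner not detected, with 0.78, 0.45 and 1.04 TPM. The ubiquitin genes Ubb (331 ± 60.3 TPM) and Rps27a (226 ± 31.0 TPM) were above every USP member in each library. The main ubiquitin-activating enzyme Uba1 had 38.3 ± 4.28 TPM, above the median, and Uba6 had 3.60 ± 0.32 TPM, below it.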

How the data were processed

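Each of 3 libraries had a gene table and 2 transcript tables. The deposited gene tables hold expected counts, TPM and FPKM per gene, with a column layout of RSEM per the file headers. Of the deposited transcript tables, one holds expected counts and TPM made from transcriptome alignments (alignment-based), and the other, quantified straight from reads, holds estimated counts with TPM (read-based, kallisto layout per the file headers). The labels name the mm10 build, and text files deposited beside the tables name annotation M21. Which aligner and counter versions were used is not given in the sources read here. Rows naming no gene (0.356%, 0.125% and 0.104% of expected counts) were left out. The members and lists were chosen with earlier results of these data known. One gene with such a symbol and some genes of the other lists are not reported here.

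A gene counted as detected from 1 TPM upwards in each library. Levels were tested on log2(TPM + 1), two-sided, with limma 3.58.1 in R 4.3.3 over 9106 detected nuclear protein-coding genes, each less its library's median, at an adjusted p of 0.05. For pairs the designed fit of all genes minus the second gene called 13 of 13, but all its differences share that gene's variation, which makes its p-values too small. The printed SE and p-values come from a limma fit that sums the variances of both genes, chosen after seeing the data, as was the count over protein-coding transcripts alone. BCV came from an intercept-only edgeR 4.0.16 model with TMM and filterByExpr, for which expected counts were rounded. Libraries differed by far more than sampling noise, with a chi-square per degree of freedom of 39.3 or more over genes with at least 10 counts. The scripts were tested on simulated data. Every member is named. Values in every library are given for the 15 highest members, all pairs, and the 5 most and 5 least variable; for other lists the 3 highest genes and those below 1 TPM are named. Any further gene was picked with its values in view. Sequences and exon overlaps came from GENCODE M21 transcripts read with Python 3.11.15.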

Additional observations from a re-analysis of the deposited data

How the results depend on the processing

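Of 299 pair ratios under alternatives 295 kept their direction and their side of the threshold. The 299 list the same ratios under both pair fits, so they are not 299 separate checks. Of 81 named differences from the library median 80 kept both. Counts are called stable within 1.5 times. Without a filter on low values 26 of 44 members, in place of 13 of 35, were above the library median, as were 47.5% of all genes tested, in place of 45.5%; the construction lowers that median, since genes near 0 enter it. The median protein-coding share was 91.6% in the alignment-based table in place of 86.7%, and between 84.9% and 89.5% with 1 library left out. Over protein-coding transcripts alone the log2 ratio of Usp4 to Usp15 reversed, to 2.20 (alignment-based) and 2.08 (read-based), and Usp15 went to -1.08 against the library median; the alternative's own construction drops its retained intron transcripts. Detected members numbered 26 to 41 over thresholds, units, tables and libraries. With 1 library left out, 13 or 14 members were above and 15 to 18 below the median, all 13 pairs were called, and the median BCV was 0.106 to 0.127 (0.111 by DESeq2 1.42.0). The summed-variance pair test called 13 of 13 pairs under every alternative, with a highest adjusted p of 0.0423; over protein-coding transcripts Usp50 is listed at 0 in every library, so its call there says nothing. No paired analysis was possible because there is 1 group. Counts of a few per library, as in Usp44 and Usp26, limit what can be said of the lowest members. The read-based table ran lower by a median of -1.28 (log2) over all detected genes, and all 35 members were within 0.5 of that shift. Around it the interquartile range over all detected genes was -0.0769 to 0.125.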
